A study of Arabidopsis thaliana with 36 samples.

Results

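Whole seedlings of Arabidopsis thaliana lacking HY5 and the factors PIF4, PIF5 and PIF7 (hy5 pif457) were compared with wild-type seedlings (WT) after 8 h of simulated shade, across all genes of the deposited count table. Each group held 3 libraries, so 6 of the 36 libraries of the series entered the comparison, and 21562 of the 32833 genes had enough counts to be tested. All seedlings were 7 days old when shade began and had grown on agar without sucrose at 22 °C in continuous white light with a red to far-red ratio of about 1.58. Shade was the same white light with added far-red light, at a ratio of about 0.02. The hy5 and pif457 seedlings at 8 h, and hy5 pif457 and WT seedlings harvested just before shade (0 h), were each 3 libraries as well and are used below as further comparisons. The labels name the genotypes and not the alleles, and call the 3 libraries of a group replicates without saying whether they came from separate plates. P values therefore measure the spread between libraries within groups, which may be partly technical. That spread was estimated from all 36 libraries of the series in 12 groups, not from the compared libraries alone. No seedlings stayed in white light until 8 h, so a change over those hours in either genotype mixes shade with elapsed time.

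HY5 is a bZIP transcription factor that accumulates in light and promotes photomorphogenesis, the flavonoid pathway and chloroplast genes. The PHYTOCHROME INTERACTING FACTORS PIF4, PIF5 and PIF7 are bHLH transcription factors. In shade, phytochrome B is converted to its inactive form, these PIFs become active, and they raise auxin synthesis and growth genes that elongate the hypocotyl. Both families are known to bind the promoter word CACGTG, the G-box, and the PIFs also bind CACATG, the PBE box.

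Library totals ran from 30846115 to 36929886 counts in hy5 pif457 and from 34580879 to 44312524 counts in WT at 8 h. CPM below are counts scaled to a common library size with TMM factors. Effects are log2 fold changes of hy5 pif457 over WT with their standard error (SE), from the edgeR quasi-likelihood test with Benjamini-Hochberg adjustment over all genes tested. A gene was called at an adjusted p under 0.05. Ribosomal RNA took 8.16% to 8.99% of counts in the hy5 pif457 libraries, against 0.636% to 0.815% in the WT libraries. All 9 hy5 pif457 libraries of the series and the 3 pif457 libraries at 8 h were rich in rRNA, at 6.01% to 11.6% of counts. The other 24 libraries held 0.467% to 2.63%. The rRNA share and the genotype cannot be told apart in the comparison with WT. The 23 root markers summed to 156.9, 188.3 and 170.5 CPM in hy5 pif457, against 191.8, 107.4 and 134.1 CPM in WT, with 1 marker at 0 in WT replicate 2. The 12 stomatal lineage markers, which label leaf and cotyledon epidermis, summed to 133.3 to 136.7 CPM in hy5 pif457, against 133.7 to 158.7 CPM in WT. In tissue made of many cell types, fewer cells of a type and less RNA per cell cannot be told apart.

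Transcripts of HY5, PIF5 and PIF7 followed the genotype label, while those of PIF4 did so weakly at 8 h and not at 0 h. HY5 transcripts were at 4.38, 4.38 and 3.96 CPM in the hy5 pif457 libraries, against 26.1, 23.4 and 19.5 CPM in the WT libraries, a log2 fold change of -2.44 (SE 0.14, adjusted p = 2.25e-12). PIF5 was at 3.68, 3.44 and 2.04 CPM in hy5 pif457, against 94.5, 93 and 94.8 CPM in WT. PIF7, whose gene is partly overlapped by an antisense annotation, had 3.37, 2.69 and 3.22 CPM in hy5 pif457, against 14.3, 17.8 and 14.8 CPM in WT. These 3 genes were far below WT in every library, with log2 fold changes of -4.94 for PIF5 and -2.34 for PIF7. PIF4 transcripts were only moderately lower, at 53.8, 45.1 and 53.6 CPM in hy5 pif457, against 65.2, 84.6 and 79.6 CPM in WT, a log2 fold change of -0.59 (SE 0.2, adjusted p = 0.039). The groups did not overlap, but the PIF4 call was lost without WT replicate 2 or 3 or hy5 pif457 replicate 1 or 2 or 3 (adjusted p = 0.0792 to 0.13) and with the root marker score as a covariate. At 0 h PIF4 was not lower in hy5 pif457, at 37.1, 40.1 and 28.4 CPM, against 31.7, 31.9 and 27.9 CPM in WT. Counts over a whole gene say nothing of whether a mutant transcript makes protein. HYH, the closest homologue of HY5 and not mutated here, was at 8.12, 7.87 and 7.97 CPM in hy5 pif457, against 30.6, 21.3 and 21.5 CPM in WT, a log2 fold change of -1.61 (SE 0.28, adjusted p = 0.000233).

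**Figure D1:**
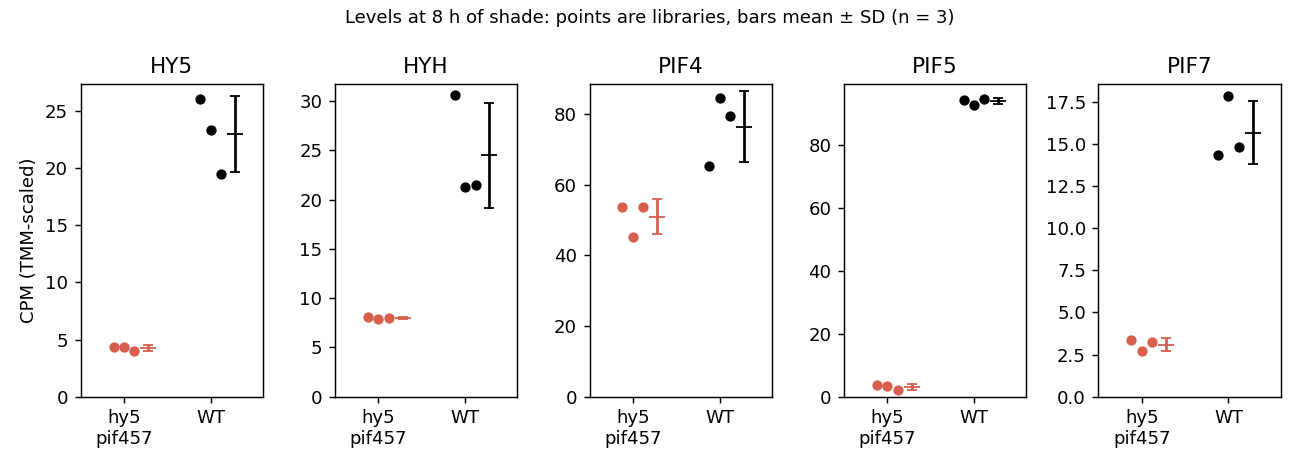
Levels in CPM of HY5, HYH, PIF4, PIF5 and PIF7 at 8 h of shade in hy5 pif457 (orange) and WT (black); points are libraries and bars are mean ± SD (n = 3). HY5, PIF5 and PIF7 lie far below WT in all hy5 pif457 libraries, while PIF4 lies at 45.1 to 53.8 CPM in hy5 pif457, against 65.2 to 84.6 CPM in WT.

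Across all genes tested, 4027 (18.7%) differed between hy5 pif457 and WT at 8 h. Of these, 1746 (8.1% of genes tested) were higher in hy5 pif457 and 2281 (10.6%) were lower. At a change of 2-fold or more, 309 were higher and 438 lower, and at 4-fold or more, 101 were higher and 111 lower. The median log2 fold change of all genes was 0.02. The number of calls depended on single libraries. It was 1506 without WT replicate 3, 1808 without hy5 pif457 replicate 1 and 1771 without hy5 pif457 replicate 3. The number rose to 5984 with the root marker score as a covariate and to 5142 with only the compared groups in the fit. A stricter set of 1323 genes (6.14%) was called in every fit that left out 1 library and with the root marker score as a covariate, 372 of them higher (1.73%) and 951 lower (4.41%) in hy5 pif457. Genes ranked by fold below come from that stricter set, with a symbol, a mean log2 CPM of at least 2 and no overlap between the groups. The separation of the ranked genes was therefore fixed by the choice. For 9353 genes (43.4%) the libraries of hy5 pif457 and WT did not overlap, so separation alone was common.

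**Figure D2:**
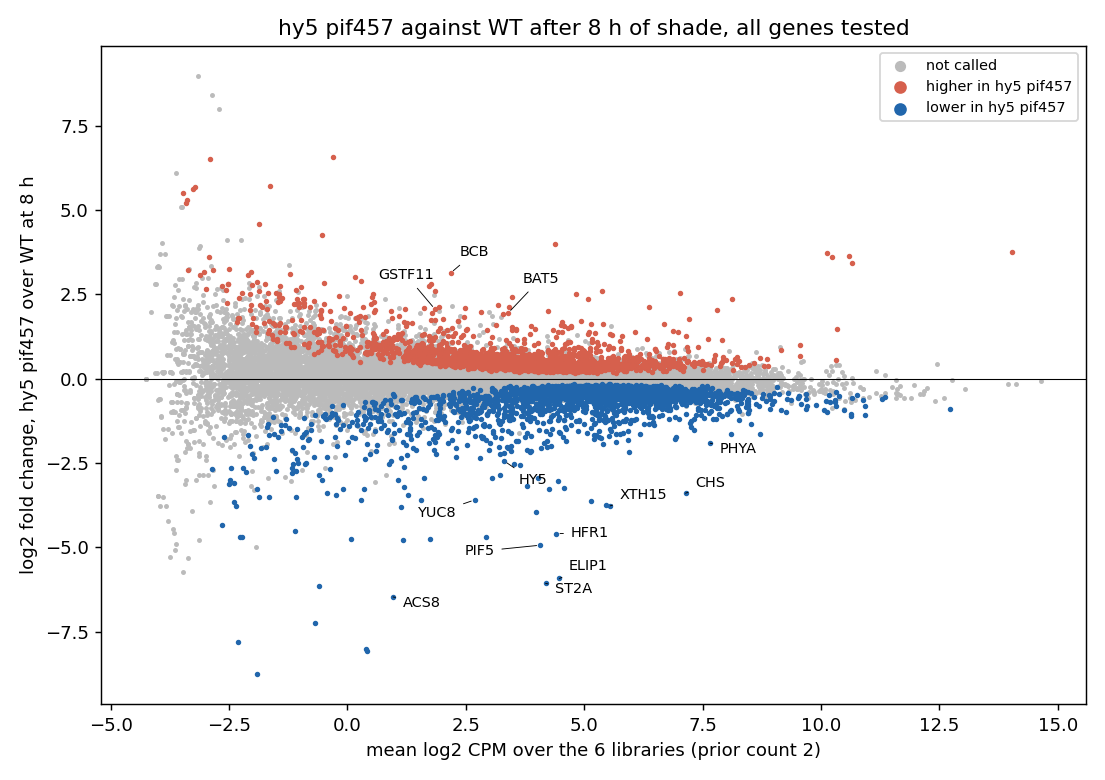
Log2 fold change of hy5 pif457 over WT at 8 h (y axis) against mean log2 CPM over the 6 libraries (x axis) for all 21562 genes tested; orange points were called higher, blue points lower, grey points were not called. The genes far below 0 at moderate levels include ST2A, ELIP1, HFR1 and PIF5, and 5 genes at a log2 CPM above 10 and a log2 fold change above 3 code for rRNA.

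The lowest of the genes so ranked was ST2A, a sulfotransferase that acts on hydroxyjasmonates. It was at 3.16, 2.28 and 1.34 CPM in hy5 pif457, against 172, 131 and 155 CPM in WT, a log2 fold change of -6.07 (SE 0.57, adjusted p = 2.98e-08). No other of the 22 jasmonate genes tested was called. ELIP1 and ELIP2, early light-induced proteins of the thylakoid thought to bind free chlorophyll, were also among the lowest. ELIP1 was at 4.05, 4.32 and 1.12 CPM in hy5 pif457, against 304, 127 and 151 CPM in WT, and ELIP2 at 1.2, 2.2 and 1.47 CPM, against 77, 21.1 and 27.8 CPM. WT replicate 1 was the highest for both, and even the lowest WT library lay far above every hy5 pif457 library. FAR1 (AT5G22500), a fatty acyl-CoA reductase, was at 11.5, 13.4 and 10.9 CPM in hy5 pif457, against 190.5, 141 and 154 CPM in WT. ADS1, a fatty acid desaturase, was at 8.19, 8.03 and 7.11 CPM in hy5 pif457, against 63.4, 84.4 and 71.1 CPM in WT. Their log2 fold changes were -3.76 and -3.23.

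Regulators induced by shade were lower in hy5 pif457. Of 13 such genes tested, 9 were lower and 0 higher, against 10.6% lower and 8.1% higher of all genes, with a median log2 fold change of -1.01. Of the 9, 7 belonged to the stricter set. HFR1, an atypical bHLH protein that sequesters PIFs, was at 5.67, 4.03 and 3.41 CPM in hy5 pif457, against 89.9, 119 and 108 CPM in WT, a log2 fold change of -4.6 (SE 0.34, adjusted p = 3.85e-10). PIL1, a related bHLH protein, was at 6.87, 4.86 and 5.77 CPM in hy5 pif457, against 45.2, 45.5 and 44.4 CPM in WT. ATHB2, a homeodomain-leucine zipper factor and a classic shade marker, was at 21.7, 17.1 and 21 CPM, against 65.1, 73.9 and 69.6 CPM. Every hy5 pif457 library was below every WT library for these genes, which for HFR1 and PIL1 was a condition of the ranking. PRE6, a helix-loop-helix protein without a DNA-binding region, had a log2 fold change of -1.21 (SE 0.15, adjusted p = 2.66e-06). HAT3, at 0.12, and ATHB4, at -0.36, were not called.

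Most early auxin response genes, and some auxin synthesis genes, were lower as well. Among 10 genes of auxin synthesis, 3 were lower and 1 was higher in hy5 pif457, with a median of -0.40. The YUCCA enzymes carry out the last step from indole-3-pyruvate to auxin. YUC8 was at 2.15, 1.69 and 1.66 CPM in hy5 pif457, against 20.9, 22.4 and 23.2 CPM in WT, a log2 fold change of -3.6 (SE 0.36, adjusted p = 9.62e-08). YUC9 was at 0.889, 0.618 and 0.606 CPM, against 7.69, 7.84 and 7.83 CPM, and YUC2 had a log2 fold change of -1.23. TAA1, the aminotransferase of the step before, went the other way, at 17.1, 18.6 and 17.8 CPM in hy5 pif457, against 8.56, 6.84 and 8.86 CPM in WT, a log2 fold change of 1.14 (SE 0.13, adjusted p = 7.8e-07). Of 17 early auxin response genes, 13 were lower and 0 higher, with a median of -1.37, and all 13 were in the stricter set. They included the Aux/IAA repressor IAA29, at 5.98, 3.17 and 4.79 CPM in hy5 pif457, against 36.6, 46.3 and 43.5 CPM in WT. IAA19, another member of that family, was at 6.9, 3.87 and 4.72 CPM in hy5 pif457, against 26.6, 35.6 and 29.8 CPM in WT. GH3.5, which conjugates auxin to amino acids, had a log2 fold change of -1.71 (SE 0.19, adjusted p = 4.42e-07). Of 19 SAUR genes, small auxin-induced genes linked to cell expansion, 16 were lower and 0 higher, with a median of -1.28. SAUR23 was at 4.2, 2.85 and 4.47 CPM in hy5 pif457, against 17, 17.57 and 14.7 CPM in WT. SAUR22 had a log2 fold change of -2.03 (SE 0.26, adjusted p = 3.57e-06) and SAUR21 of -1.62 (SE 0.25, adjusted p = 4.31e-05).

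Genes of the growing cell wall and of growth hormones showed a mixture of called and uncalled members. Of 18 cell wall genes, 8 were lower and 0 higher, with a median of -0.53. XTH15, a xyloglucan endotransglucosylase/hydrolase, was at 13.8, 12.9 and 11.3 CPM in hy5 pif457, against 166, 179 and 174 CPM in WT, a log2 fold change of -3.77 (SE 0.36, adjusted p = 4.37e-08). XTH33 and XTH17 of the same family had log2 fold changes of -3.22 and -2.14, and the expansin EXPA3 of -0.72. Among 11 ethylene synthesis genes, 4 were lower. ACS8, an ACC synthase, was close to absent in hy5 pif457 at 0.307, 0.161 and 0.0957 CPM (19 counts over the 3 libraries), against 16.2, 19.2 and 15.6 CPM in WT (1984 counts). ACS4 was at 0.153, 0.188 and 0.191 CPM in hy5 pif457, against 4.4, 5.78 and 4.49 CPM in WT. ACO4, an ACC oxidase, the enzyme that completes the pathway, had a log2 fold change of -0.8.

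Of 18 gibberellin genes, 9 were lower and 1 was higher. Both synthesis and inactivation were among the lower ones. GA20OX2, which makes gibberellin precursors, was at 1.47, 1.29 and 1.21 CPM in hy5 pif457, against 4.62, 4.57 and 4.61 CPM in WT. GA2OX6, which inactivates gibberellins, was at 2.21, 1.8 and 2.52 CPM in hy5 pif457, against 9.92, 10.9 and 11.7 CPM in WT. GAI, a DELLA repressor of gibberellin responses, had a log2 fold change of -0.7 (SE 0.11, adjusted p = 5.71e-05). Among 14 brassinosteroid genes, 6 were lower and 3 higher. BEE1, a brassinosteroid-induced bHLH factor, was at 9.93, 6.66 and 8.52 CPM in hy5 pif457, against 34.2, 37.2 and 34 CPM in WT. BR6OX2, which makes brassinolide, had a log2 fold change of -1.15 (SE 0.15, adjusted p = 4.77e-06) and the receptor BRI1 of -0.64 (SE 0.11, adjusted p = 0.000149). In the cytokinin list, CKX5, a cytokinin oxidase, was at 3.31, 3.22 and 3.86 CPM in hy5 pif457, against 21.4, 27.3 and 26.2 CPM in WT, a log2 fold change of -2.85 (SE 0.32, adjusted p = 5.9e-07). Of the 16 cytokinin genes, 6 were higher, 5 of them type-A response regulators, which cytokinin induces, and the other the oxidase CKX4. CKX5 was the single lower one. ARR6 was at 7.57, 6.69 and 9.92 CPM in hy5 pif457, against 4.16, 1.83 and 2.47 CPM in WT, and ARR4 had a log2 fold change of 0.99 (SE 0.14, adjusted p = 1.17e-05). An antisense annotation overlaps part of XTH15, CKX5 and ARR6, and the strand setting of the counting is not given in the sources used here.

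**Figure D3:**
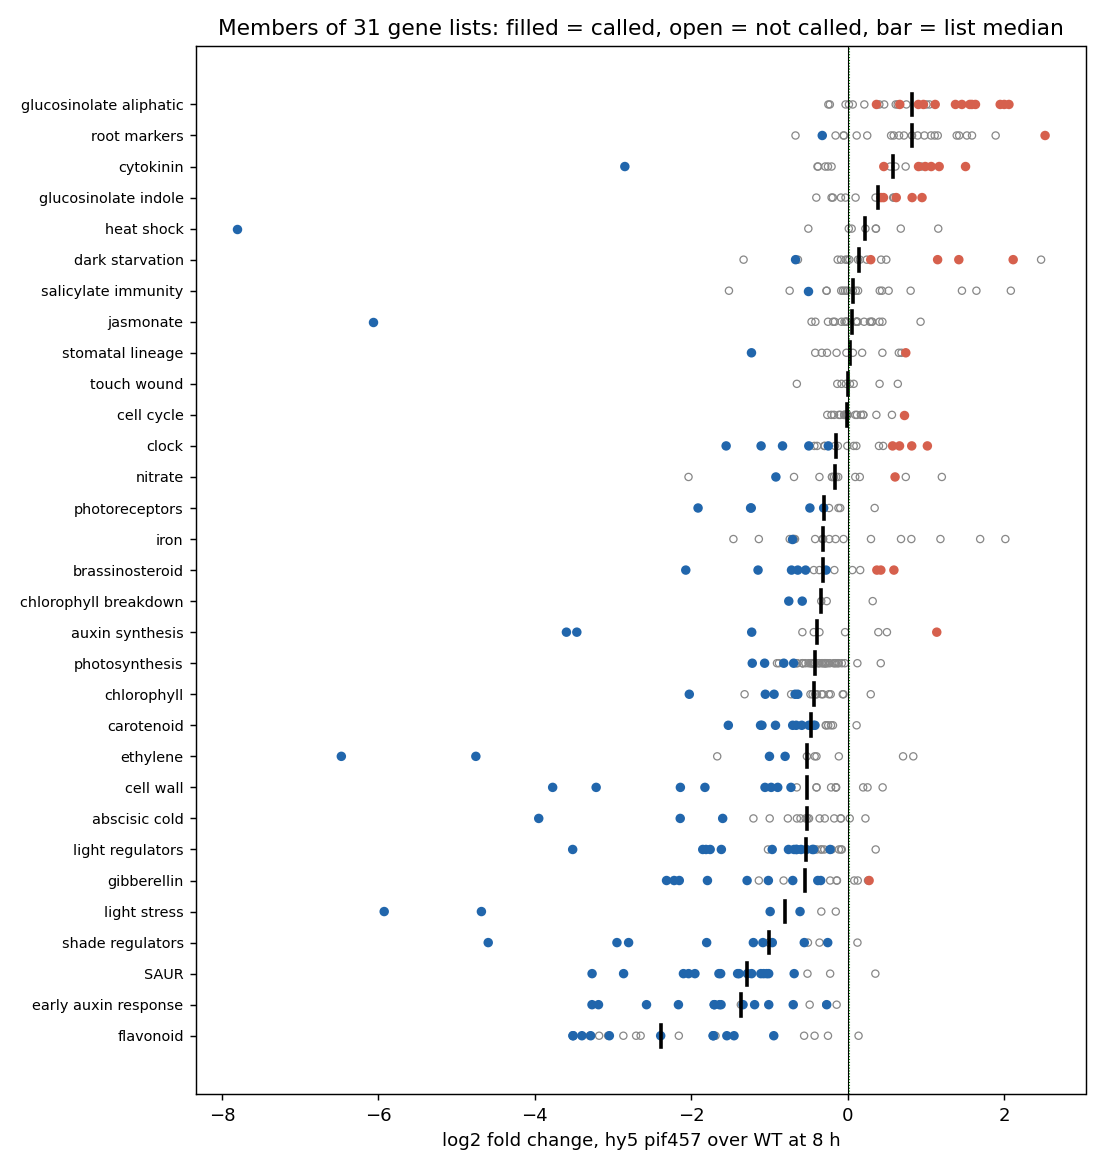
Log2 fold change of hy5 pif457 over WT at 8 h (x axis) for each tested member of 31 gene lists (rows, ordered by median); filled points were called, orange higher and blue lower, open points were not called, and black bars are list medians. Flavonoid genes have the lowest median, at -2.39, and aliphatic glucosinolate genes the highest, at 0.83, against 0.02 for all genes.

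Flavonoid genes had the lowest median of the 31 lists. Of 23 tested, 11 were lower and 0 higher in hy5 pif457, with a median log2 fold change of -2.39, and 10 of the 11 were in the stricter set. CHS, chalcone synthase, the entry enzyme of the pathway, was at 43.1, 44.6 and 43.6 CPM in hy5 pif457, against 561, 373 and 451 CPM in WT, a log2 fold change of -3.4 (SE 0.44, adjusted p = 4.61e-06). F3H, flavanone 3-hydroxylase, was at 6.35, 6.18 and 5.93 CPM in hy5 pif457, against 71.2, 51.8 and 57 CPM in WT. However, 94.5% of its gene length, introns included, lies opposite an antisense annotation. FLS1, flavonol synthase, was at 6.65, 8.46 and 7.94 CPM in hy5 pif457, against 79, 51.9 and 59.7 CPM in WT. The hy5 pif457 values of these genes were tightly grouped, and their separation from WT was a condition of the ranking. UGT78D2, a flavonoid glucosyltransferase, had a log2 fold change of -1.54 (SE 0.21, adjusted p = 9.01e-06). LDOX, anthocyanidin synthase, was not called. It was at 0.674, 0.698 and 0.51 CPM in hy5 pif457, against 3.65, 4.21 and 5.99 CPM in WT (adjusted p = 0.108).

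Light signalling regulators were also lower. Of 25 tested, 15 were lower and 0 higher, with a median of -0.53. RUP2, which returns the UV-B receptor to its inactive dimer, was at 5.83, 5.99 and 6.89 CPM in hy5 pif457, against 25.9, 20.6 and 21.1 CPM in WT, a log2 fold change of -1.85 (SE 0.23, adjusted p = 2.23e-06). RUP1, with the same role, had a log2 fold change of -1.76 (SE 0.25, adjusted p = 1.52e-05). BIC1, an inhibitor of cryptochromes, was at 2.67, 2.42 and 2.3 CPM in hy5 pif457, against 9.89, 7.49 and 8.53 CPM in WT. Of 6 light stress genes, 4 were lower, ELIP1 and ELIP2 by far the most. PSBS, the photosystem II protein of energy-dependent quenching, had a log2 fold change of -0.99 (SE 0.15, adjusted p = 3.84e-05) and OHP2 of -0.61 (SE 0.13, adjusted p = 0.0021).

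The promoters of 4 of these genes are shown because each holds CACGTG, the word that both the bZIP and the bHLH factors are known to bind. They were chosen after their values were seen, as a flavonoid gene, a light stress gene, an auxin response gene and a photoreceptor gene. Each is the 250 bases before the RefSeq gene start in TAIR10.1, written 5′ to 3′ on the transcribed strand, with CACGTG in capitals. They lie at chr5:4488226-4488475, plus strand (CHS), chr3:8085670-8085919, minus strand (ELIP1), chr3:5263751-5264000, plus strand (IAA19) and chr2:8139506-8139755, plus strand (PHYB).
CHS: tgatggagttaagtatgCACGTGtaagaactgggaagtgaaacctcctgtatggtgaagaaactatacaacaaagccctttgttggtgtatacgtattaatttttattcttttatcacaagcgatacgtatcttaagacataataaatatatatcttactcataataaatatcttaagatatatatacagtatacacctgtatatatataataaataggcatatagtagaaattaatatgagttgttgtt
ELIP1: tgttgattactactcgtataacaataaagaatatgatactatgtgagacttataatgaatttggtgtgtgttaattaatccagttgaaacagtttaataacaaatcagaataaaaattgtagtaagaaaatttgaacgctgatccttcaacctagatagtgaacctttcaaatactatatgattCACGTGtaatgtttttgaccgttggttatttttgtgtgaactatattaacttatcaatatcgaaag
IAA19: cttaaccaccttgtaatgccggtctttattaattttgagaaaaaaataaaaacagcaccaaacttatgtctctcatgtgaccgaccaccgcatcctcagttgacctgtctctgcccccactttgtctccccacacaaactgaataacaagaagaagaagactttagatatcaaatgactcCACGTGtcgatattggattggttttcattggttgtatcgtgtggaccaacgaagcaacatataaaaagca
PHYB: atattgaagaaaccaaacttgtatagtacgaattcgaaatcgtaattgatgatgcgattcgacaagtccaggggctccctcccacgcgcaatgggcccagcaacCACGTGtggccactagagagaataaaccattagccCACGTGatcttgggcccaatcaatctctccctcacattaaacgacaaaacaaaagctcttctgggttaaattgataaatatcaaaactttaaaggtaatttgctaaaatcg
The word began 233 bases before the gene start in CHS, 66 in ELIP1 and 70 in IAA19, and at 146 and 111 bases in PHYB. It occurred in 7.4% of the 20910 such windows of tested genes. Among genes lower at least 2-fold in hy5 pif457 it occurred in 10.6% of 425, and among genes higher at least 2-fold in 5.7% of 244. CACATG, on either strand, occurred in 18.4% of the lower windows and 12.3% of the higher ones, against 11.4% of all windows. Overlaps between the words were not removed, and a match is a description of the letters, not a measured binding site. HFR1, ST2A and XTH15, among the lowest genes, had no CACGTG in this window.

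Photoreceptor transcripts were lower for 5 of 10 genes tested and higher for 0, although 1 was called higher with RLE scaling, DESeq2 or rRNA and organelle genes left out. PHYA, the far-red photoreceptor, was at 96.1, 126 and 92.5 CPM in hy5 pif457, against 430.1, 368 and 386 CPM in WT, a log2 fold change of -1.91 (SE 0.25, adjusted p = 5.55e-06). PHYB, the main sensor of the red to far-red ratio, was at 91.6, 111 and 96.5 CPM in hy5 pif457, against 234, 233 and 239 CPM in WT. PHOT1, a blue light receptor for phototropism, was at 178, 244 and 189 CPM in hy5 pif457, against 448, 438 and 553 CPM in WT. The groups were well separated in all 3.

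Of 20 chlorophyll synthesis genes and their regulators, 5 were lower and 0 higher, with a median of -0.43. CGA1, a GATA factor that promotes chloroplast development, was at 3.71, 5.53 and 4.4 CPM in hy5 pif457, against 16.8, 21.2 and 17.65 CPM in WT, a log2 fold change of -2.02 (SE 0.3, adjusted p = 2.77e-05). GNC, its paralogue, had a log2 fold change of -0.67 (SE 0.15, adjusted p = 0.00273). Among 16 carotenoid genes, 10 were lower and 0 higher, with a median of -0.47, and 4 of the 10 were in the stricter set. ZEP, zeaxanthin epoxidase, had a log2 fold change of -1.11 (SE 0.2, adjusted p = 0.000422) and LUT5, a carotene hydroxylase, of -0.92 (SE 0.16, adjusted p = 0.000287). Of 41 nuclear photosynthesis genes, 4 were called lower and 0 higher, a share close to the 10.6% of all genes. The median was -0.42, and the groups did not overlap for 35 of the 41, against 43.4% of all genes. LHCB4.3, a minor antenna protein of photosystem II, was at 11.9, 16.6 and 14.4 CPM in hy5 pif457, against 35.2, 28.8 and 36.1 CPM in WT, and was the 1 photosynthesis gene in the stricter set.

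The genes higher in hy5 pif457 included many of the aliphatic glucosinolate pathway, which makes methionine-derived defence compounds. Of 26 tested, 13 were higher and 0 lower, against 8.1% higher of all genes, with a median log2 fold change of 0.83. The members of the stricter set numbered 7. BAT5, a plastid carrier of the keto acid intermediates, was at 21.3, 19.1 and 21.4 CPM in hy5 pif457, against 5.42, 5.04 and 5.52 CPM in WT, a log2 fold change of 1.95 (SE 0.28, adjusted p = 1.79e-05). BCAT4, the aminotransferase that starts methionine chain elongation, was at 57.6, 63.5 and 65 CPM in hy5 pif457, against 21.6, 17.36 and 20.9 CPM in WT. IPMI1, a subunit of the isopropylmalate isomerase of that elongation, was at 23.3, 26.2 and 26.1 CPM in hy5 pif457, against 9.77, 6.66 and 9.12 CPM in WT. MYB29, a transcription factor of the pathway, was at 14.1, 14.4 and 17.8 CPM in hy5 pif457, against 4.14, 6.28 and 5 CPM in WT. FMOGS-OX3, which oxidises the side chain, had a log2 fold change of 1.46 (SE 0.3, adjusted p = 0.00149). GSTF11, a glutathione transferase, had 2.06 (SE 0.34, adjusted p = 0.00011), but an antisense annotation spans its whole gene. Of 14 indole glucosinolate genes, 5 were higher and 0 lower, with a median of 0.39. GSTF10 and GSTF9 had log2 fold changes of 0.95 and 0.62.

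Other genes among the 14 highest by fold had varied roles. BCB, a blue copper-binding protein, was at 11, 13.7 and 16.1 CPM in hy5 pif457, against 2.08, 1.03 and 1.48 CPM in WT, a log2 fold change of 3.13 (SE 0.79, adjusted p = 0.00758). POX1, proline dehydrogenase, was at 171, 181 and 199 CPM in hy5 pif457, against 77.9, 50.1 and 51.4 CPM in WT. AK3, an aspartate kinase on the route to methionine and lysine, was at 35, 39.7 and 44.1 CPM in hy5 pif457, against 12.5, 12.2 and 14.3 CPM in WT. ATMYB48, a MYB transcription factor, had a log2 fold change of 1.54 (SE 0.14, adjusted p = 2.21e-08). CSLB3, a cellulose synthase-like protein, had 1.45 (SE 0.26, adjusted p = 0.000301). AT14A is annotated as a pair of identical loci (AT3G28290 and AT3G28300) that share all their 50-base stretches and have the same value in every library, so it counts as 1 uncertain measurement, at 1.7.

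Clock genes moved in both directions, 4 higher and 5 lower of 20 tested. FKF1, a blue light receptor of the evening, was at 33.5, 35.8 and 34.4 CPM in hy5 pif457, against 12.8, 19.4 and 19 CPM in WT, and its call was lost without WT replicate 1 (adjusted p = 0.0581). LUX, of the evening complex, was at 78.1, 75 and 80.1 CPM in hy5 pif457, against 51.2, 49.4 and 46.6 CPM in WT, a log2 fold change of 0.66 (SE 0.15, adjusted p = 0.00242). PRR5, a repressor of morning genes, had a log2 fold change of 0.82 (SE 0.23, adjusted p = 0.0132), and its call was lost without WT replicate 1 (adjusted p = 0.0668). The morning genes LHY and CCA1, named after their values were seen, were lower. LHY was at 27.8, 26.3 and 28.4 CPM in hy5 pif457, against 77.5, 84.1 and 80.4 CPM in WT (adjusted p = 0.0173). CCA1 was at 32, 25.8 and 31.1 CPM in hy5 pif457, against 56.7, 65.8 and 69 CPM in WT (adjusted p = 0.0311). Neither was in the stricter set. COR27, a cold-regulated gene with evening expression, was at 29, 25.1 and 24.3 CPM in hy5 pif457, against 6.94, 11.8 and 9.54 CPM in WT. The labels give no clock time of harvest, and the part that a difference in clock phase has in the other results was not tested.

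Several lists showed few or no calls. Of the 23 root markers, 1 was higher and 1 lower, with a median of 0.82. The higher one was TIP2;3, a root aquaporin, at 4.51, 5.67 and 5.77 CPM in hy5 pif457, against 2.42, 0.0295 and 0.259 CPM in WT, and its call was lost without WT replicate 2 or 3 or hy5 pif457 replicate 1 or 2 or 3 (adjusted p = 0.0673 to 0.197). The summed root markers of the 2 groups overlapped, and the part of root tissue in the other results was examined only by the covariate fit. Of 18 abscisic acid and cold genes, 3 were lower, none in the stricter set. COR15A, a chloroplast cold protection protein, was at 4.32, 4.86 and 4.91 CPM in hy5 pif457, against 14.2, 106 and 98.2 CPM in WT, with WT replicate 1 far below the other WT libraries, and its call was lost without hy5 pif457 replicate 1 or 3 (adjusted p = 0.0572 to 0.0603). Among 18 dark and sugar starvation genes, 4 were higher and 1 lower. DIN6, asparagine synthetase, was at 18.6, 23.58 and 25.8 CPM in hy5 pif457, against 7.4, 3.89 and 4.32 CPM in WT, and its call was lost without WT replicate 3 (adjusted p = 0.0577). HSP22, the single called heat shock gene of 9, had 0 counts in all hy5 pif457 libraries, against 0.508, 0.737 and 0.963 CPM in WT, and was at least 8.23-fold lower with a floor of 3 counts per library. DESeq2 did not call it. Nitrate genes (1 higher and 1 lower of 14), iron genes (1 lower of 19), salicylate and immunity genes (1 lower of 19), cell cycle genes (1 higher of 20) and touch and wound genes (0 of 8) were called at shares near or below the 18.7% of all genes. A miss of the threshold does not show that they were equal.

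The rRNA and organelle transcripts were also counted by class. Of 11 rRNA genes tested, 9 were higher and 0 lower in hy5 pif457, with a median log2 fold change of 3.44. Of 47 other mitochondrial genome genes, 31 were higher and 0 lower, with a median of 1.33. Of 77 other plastid genome genes, 20 were higher and 3 lower, with a median of 0.46. Set against pif457 at 8 h, whose libraries were also rich in rRNA, hy5 pif457 had 1 rRNA gene higher and 0 lower, with a median of 0.13. In that comparison 2 of the 47 mitochondrial genes were higher and 0 lower, with a median of 0.34. Of the 77 plastid genes, 22 were higher and 0 lower, with a median of 0.47, close to that against WT. With rRNA and organelle genes left out of the fit, 3939 of 21439 genes were called, 53.1% of them higher in hy5 pif457, against 43.4% with all genes.

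The comparison with hy5 at 8 h asks what the further loss of PIF4, PIF5 and PIF7 changed, and that with pif457 at 8 h what the further loss of HY5 changed. Both use the same hy5 pif457 libraries. The hy5 libraries held 0.584% to 1.2% rRNA, so the rRNA share and the genotype cannot be told apart against hy5 either. Against hy5, 5104 genes (23.7%) were called, 2487 (11.5%) higher and 2617 (12.1%) lower in hy5 pif457. Against pif457, 5707 (26.5%) were called, 2442 (11.3%) higher and 3265 (15.1%) lower. The hy5 libraries were uneven, and replicate 2 stood apart. RBG7, a rhythmic glycine-rich RNA-binding protein, was at 1364, 512 and 1248 CPM in the 3 hy5 libraries, and XTH15 at 90, 347 and 100.3 CPM. Calls against hy5 numbered 1839 without hy5 replicate 2, 2392 without hy5 pif457 replicate 1 and 2461 without hy5 pif457 replicate 3. Calls against pif457 numbered 2531 and 2645 without hy5 pif457 replicates 1 and 3, and 836 when the fit held only the 2 groups.

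Shade and auxin genes differed strongly between hy5 pif457 and hy5. Of 13 shade regulators, 10 were lower in hy5 pif457 than in hy5, with a median of -1.17. Against pif457, 3 were higher and 0 lower, with a median of 0.03. When the fit held only the 2 groups, 0 of 12 were higher and 0 lower. All 17 early auxin response genes were lower in hy5 pif457 than in hy5, and 12 to 15 of them when 1 library was left out. Against pif457, 2 were higher and 5 lower, with 0 to 3 higher and 1 to 6 lower when 1 library was left out. The SAUR genes behaved likewise against hy5, with 17 of 19 lower and 1 higher. Without hy5 replicate 2, 9 shade regulators, 12 early auxin response genes and 15 SAUR genes were lower. Against pif457, 9 SAUR genes were higher and 0 lower, with a median of 0.68, and 4 to 14 were higher when 1 library was left out and 0 when the fit held only the 2 groups. SAUR22 averaged 5.16 ± 1.67 CPM in hy5 pif457, 22.6 ± 6.05 CPM in hy5 and 2.46 ± 0.789 CPM in pif457 (SD, n = 3 each), with a log2 fold change over pif457 of 1.06 (SE 0.27, adjusted p = 0.00616). That call was lost without hy5 pif457 replicate 1 (adjusted p = 0.0585).

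HFR1 averaged 4.37 ± 1.17 CPM in hy5 pif457, 60.1 ± 20.2 CPM in hy5, 7.51 ± 2.33 CPM in pif457 and 106 ± 14.8 CPM in WT. Its log2 fold change was -3.78 (SE 0.33, adjusted p = 5.46e-09) over hy5 and -0.78 (SE 0.31, adjusted p = 0.0643) over pif457. ST2A, YUC8, ADS1 and FAR1 had log2 fold changes over hy5 of -6.58, -4.18, -3.41 and -4.36, and over pif457 of -0.99, -0.56, -0.16 and -0.54. None of these 4 was called against pif457 and all 4 were called against hy5. PHYA, at 105 ± 18.3 CPM in hy5 pif457, 417 ± 251 CPM in hy5 and 125 ± 4.53 CPM in pif457, differed from hy5 (adjusted p = 3.07e-06), while against pif457 the adjusted p was 0.457.

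Flavonoid genes showed the other arrangement. Against pif457, 20 of 23 were lower in hy5 pif457 and 1 was higher, with a median of -3.21. When 1 library was left out, 16 to 20 were lower, and 11 of 21 were lower when the fit held only the 2 groups. Against hy5, 3 were lower and 0 higher, with a median of -0.10, and 0 were called without hy5 replicate 2. CHS averaged 43.8 ± 0.723 CPM in hy5 pif457, 118 ± 67.8 CPM in hy5, 442 ± 222 CPM in pif457 and 462 ± 94.5 CPM in WT. Its log2 fold change was -1.43 (SE 0.41, adjusted p = 0.0141) over hy5 and -3.33 (SE 0.44, adjusted p = 1.76e-05) over pif457. The call against hy5 was lost without hy5 replicate 2 (adjusted p = 0.183) or without hy5 pif457 replicate 1 or 3 (0.0524 and 0.0512). F3H and FLS1 had log2 fold changes over pif457 of -3.86 and -3.21. BIC1 and RUP2 were lower in hy5 pif457 than in pif457, by log2 values of -1.74 and -1.0, while their adjusted p values against hy5 were 0.122 and 0.264. ELIP1 and ELIP2 had an intermediate level in pif457. ELIP1 averaged 3.16 ± 1.78 CPM in hy5 pif457, 2.43 ± 1.25 CPM in hy5, 46.5 ± 15.7 CPM in pif457 and 194 ± 96 CPM in WT.

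**Figure D4:**
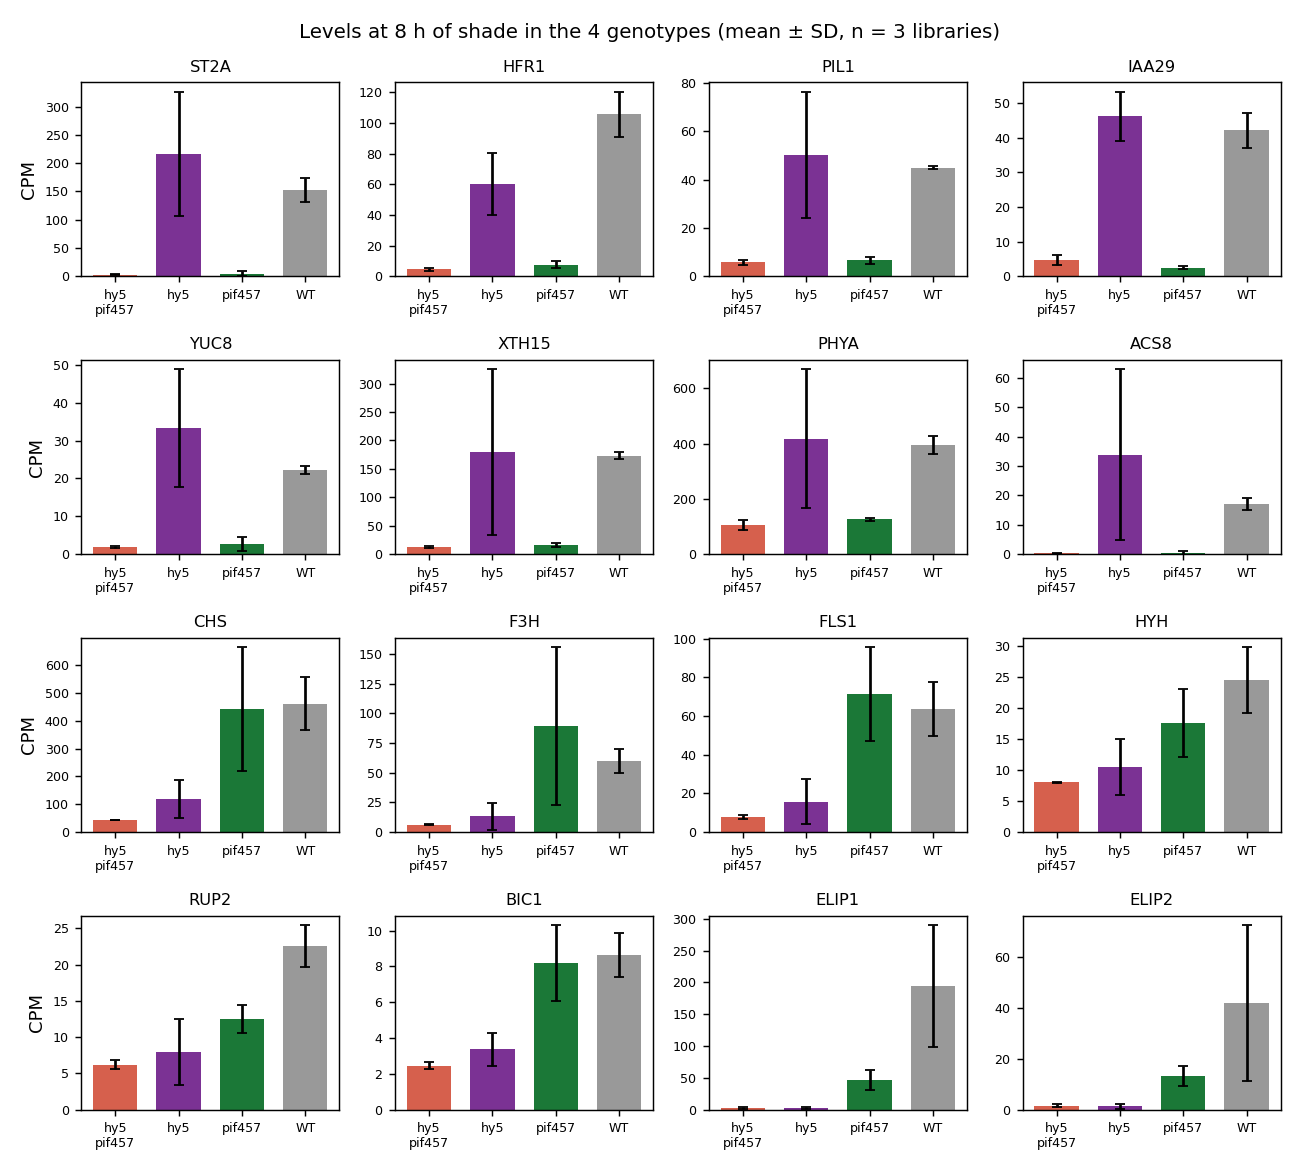
Mean CPM at 8 h of shade in hy5 pif457, hy5, pif457 and WT for 16 genes (bars, with SD over 3 libraries; y axes start at 0 and differ between panels). The shade, auxin and ethylene genes of the upper rows are low in hy5 pif457 and pif457, the flavonoid genes and HYH, RUP2 and BIC1 are low in hy5 pif457 and hy5, and ELIP1 and ELIP2 are intermediate in pif457.

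Fewer aliphatic glucosinolate genes were called against the other mutants. Against hy5, 6 of 26 were higher and 3 lower in hy5 pif457, and against pif457, 1 was higher and 4 lower. Of all genes, 11.5% were higher and 12.1% lower against hy5, and 11.3% higher and 15.1% lower against pif457. The lower calls of the list were thus near the shares of all genes. Without hy5 replicate 2, 4 were higher and 0 lower than in hy5, and 1 to 9 were lower than in pif457 when 1 library was left out. BAT5 averaged 20.6 ± 1.33 CPM in hy5 pif457, 8.7 ± 0.599 CPM in hy5, 15.2 ± 7.08 CPM in pif457 and 5.33 ± 0.254 CPM in WT, and its log2 fold change over hy5 was 1.24 (SE 0.27, adjusted p = 0.00222). The pif457 libraries were uneven for it, at 19.3, 19.3 and 7.06 CPM. MYB29 had log2 fold changes of 1.78 over hy5 and 0.99 over pif457, and the call against pif457 was lost in 4 of the 6 fits without 1 library (adjusted p = 0.0625 to 0.214). FKF1 and COR27, the evening genes, were higher in hy5 pif457 than in pif457, by log2 values of 1.3 and 1.62, while against hy5 their adjusted p values were 0.77 and 0.685.

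How far the effect of hy5 pif457 lay from the added effects of hy5 and of pif457, on the log2 scale, was tested as a departure. It was called for 2976 genes (13.8%), 932 (4.32%) above the sum and 2044 (9.48%) below it. This count was the least stable. It was 53 without WT replicate 2, 88 without pif457 replicate 3, 283 and 501 without hy5 pif457 replicates 1 and 3, 1260 and 1982 without hy5 replicates 2 and 3, and 5247 without pif457 replicate 1. With the root marker score as a covariate it was 25, and with only the 4 groups in the fit 22. Among the root markers, 12 of 23 were below the sum and 0 above, with a median of -3.01. That list had 0 calls without WT replicate 2, pif457 replicate 3 or hy5 pif457 replicate 1 or 3, and 19 without WT replicate 1. It also had 0 with only the 4 groups in the fit or with the covariate. The covariate is the mean of these same markers, so the covariate fit cannot test this list. EXT2, an extensin of the cell wall, was at 7.08, 13.4 and 8.45 CPM in hy5 pif457, 7.43, 215 and 541 CPM in pif457 and 33.1, 0.324 and 18.4 CPM in WT, and its lowest WT value was in replicate 2, the library with the lowest root marker score of the 6. Its departure, -6.32 (SE 1.6, adjusted p = 0.0189), was lost with the covariate (adjusted p = 0.982).

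The shares of shade regulators, light regulators and flavonoid genes called in this test did not exceed the 13.8% of all genes. Other lists had larger shares. Below the sum were 4 of 17 early auxin response, 4 of 18 cell wall, 7 of 26 aliphatic and 5 of 14 indole glucosinolate genes. Above it were 4 of 12 stomatal lineage genes. The early auxin, cell wall and aliphatic lists had 0 calls with the root marker covariate or only the 4 groups in the fit. For HFR1, PIL1, ATHB2 and PIF5 the departure was 0.03, -0.33, 0.31 and 0.01, none called. Of 13 shade regulators, 1 was above the sum, of 25 light regulators 1 was above, and of 23 flavonoid genes 1 was below. ELIP1 was above the sum by 2.47 (SE 0.65, adjusted p = 0.0197), a call lost without WT replicate 2 (adjusted p = 0.0597), pif457 replicate 3 (0.0696) or hy5 pif457 replicate 1 (0.0566) and with the root marker covariate (0.11). MRD1 had the largest departure among the named genes, 13.69 (SE 0.62, adjusted p = 1.56e-14). It was at 17.8, 19.9 and 18.9 CPM in hy5 pif457, 0.169, 0.0891 and 0.241 CPM in hy5, 0.0281, 0.109 and 0.5 CPM in pif457 and 26.8, 29.4 and 24.4 CPM in WT, so it was nearly absent from hy5 and from pif457 but present in hy5 pif457. An antisense annotation covers 86.8% of MRD1. HEI10 showed the same order. It was at 5.73, 6.07 and 6.41 CPM in hy5 pif457, 1.81, 1.25 and 1.78 CPM in hy5, 2.03, 1.77 and 2.69 CPM in pif457 and 9.94, 8.55 and 7.97 CPM in WT. An antisense annotation covers 39.2% of HEI10, and one on the same strand 22.8%. Its identifier (AT1G53490) follows that of MRD1 (AT1G53480), and whether these genes share reads was not tested.

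Whether the difference at 8 h was other than the difference already present at 0 h was tested as an interaction. It was called for 2950 genes (13.7%), 1022 (4.74%) with a higher and 1928 (8.94%) with a lower difference at 8 h. The share of higher ones was 34.6%, against 48% with RLE scaling or DESeq2 and 55.5% with rRNA and organelle genes left out, so the balance of directions depended on scaling. The count ran from 1122 to 4052 over the fits without 1 library, and was 4492 with only the 4 groups in the fit. It was lowest without WT replicate 3 at 8 h (1122), hy5 pif457 replicate 1 at 8 h (1276) and hy5 pif457 replicate 3 at 8 h (1283). Leaving out WT replicate 1 or 3 at 0 h gave 1508 and 1543, and leaving out hy5 pif457 replicates 1, 2 or 3 at 0 h gave 1940, 1689 and 1520.

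Most shade and auxin genes differed more between the genotypes after 8 h than before shade. ST2A was at 1.19, 1.89 and 2.52 CPM in hy5 pif457 and 1.91, 1.04 and 1.09 CPM in WT at 0 h, so the 8 h level of hy5 pif457 was close to its level before shade while that of WT was far above its own. The difference changed by -6.54 (SE 0.82, adjusted p = 1.04e-05). XTH15 was at 9.34, 11.4 and 11.6 CPM in hy5 pif457 and 6.72, 10.4 and 7.26 CPM in WT at 0 h, and its difference changed by -4.18 (SE 0.49, adjusted p = 4.35e-06). PHYA was at 84.5, 90 and 88.9 CPM in hy5 pif457 and 58.6, 85 and 60.3 CPM in WT at 0 h, and its difference changed by -2.28 (SE 0.35, adjusted p = 0.000133). In this test, 10 of 13 shade regulators, 14 of 17 early auxin genes, 17 of 19 SAUR genes and 8 of 18 cell wall genes had a lower difference at 8 h, and none of these lists had a higher one. The cell wall count was 5 to 9 without 1 library, and was 5 without WT replicate 1 at 0 h, WT replicate 3 at 8 h, hy5 pif457 replicate 2 at 0 h or hy5 pif457 replicate 3 at 8 h. It was 12 with the root marker covariate or only the 4 groups in the fit. In addition, 1 cell wall gene was higher without WT replicate 2 at 0 h or with only the 4 groups. The call of HFR1 was lost without hy5 pif457 replicate 3 at 0 h (adjusted p = 0.0626). PIL1 was at 0.42, 0.27 and 0.276 CPM in hy5 pif457 and 0.56, 0.302 and 0.384 CPM in WT at 0 h. It averaged 5.83 ± 1 CPM in hy5 pif457 at 8 h, so its transcripts were above the 0 h level there too.

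CHS, F3H and FLS1 were lower already at 0 h, with log2 fold changes of -2.41, -2.52 and -2.72 (adjusted p = 0.00062, 0.0012 and 3.87e-05). CHS was at 96.1, 77 and 74.1 CPM in hy5 pif457 and 586, 248 and 480.1 CPM in WT at 0 h, and the change of its difference was -0.99 (SE 0.57, adjusted p = 0.252). Of the 23 flavonoid genes, 1 was called in this test, lower. ELIP2 was at 9.27, 14.5 and 17.41 CPM in hy5 pif457 and 14.7, 10.5 and 13.3 CPM in WT at 0 h, where the groups overlapped, and its difference changed by -4.78 (SE 0.65, adjusted p = 3.28e-05). ELIP1 was at 1.82, 2.77 and 4.67 CPM in hy5 pif457 and 25.5, 9.54 and 18.8 CPM in WT at 0 h, so it was already lower before shade, and its difference changed by -3.4 (SE 0.65, adjusted p = 0.00132). Aliphatic glucosinolate genes had a higher difference at 8 h for 8 of 26 and a lower one for 0, with 4 to 10 higher when 1 library was left out. With only the 4 groups in the fit, 16 were higher and 1 lower, and with the root marker covariate, 10 were higher and 2 lower. BAT5 was at 30.7, 30.8 and 24.2 CPM in hy5 pif457 and 26.2, 20.5 and 25.5 CPM in WT at 0 h, so the hy5 pif457 level at 8 h lay nearer to its 0 h level than that of WT did.

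The order of the genotypes was opposite at the 2 times for RBG7 and JMJ30. RBG7 averaged 525 ± 59.7 CPM in hy5 pif457 and 1058 ± 174 CPM in WT at 0 h. At 8 h it averaged 1077 ± 42.4 CPM in hy5 pif457 and 533 ± 34 CPM in WT, and the difference changed by 2.02 (SE 0.31, adjusted p = 0.000135). JMJ30, a histone demethylase under clock control, averaged 23.5 ± 1.26 CPM in hy5 pif457 and 62 ± 9.39 CPM in WT at 0 h. At 8 h it averaged 67.5 ± 2.94 CPM in hy5 pif457 and 35.7 ± 2.27 CPM in WT. Its call between the genotypes at 8 h was lost without WT replicate 1 or 2 or 3 or hy5 pif457 replicate 1 or 2 or 3 (adjusted p = 0.0541 to 0.114). Of the 20 clock genes, 16 had a different genotype difference at the 2 times, 5 higher and 11 lower at 8 h. Without 1 library these were 2 to 5 higher and 7 to 11 lower, fewest without WT replicate 3 at 8 h, with 3 higher and 7 lower.

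**Figure D5:**
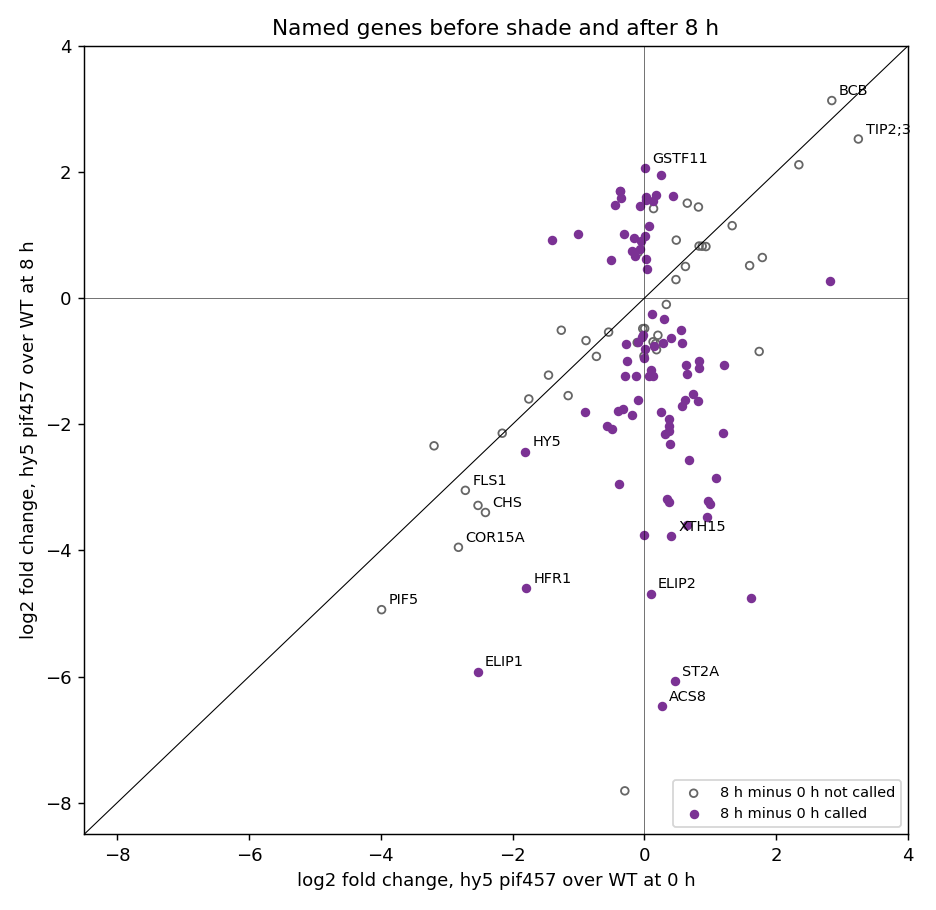
Log2 fold change of hy5 pif457 over WT at 8 h (y axis) against that at 0 h (x axis) for the 127 named genes; the diagonal marks equal differences, and filled points are those whose change between the times was called. ST2A, ACS8 and XTH15 lie near 0 at 0 h and far below it at 8 h, while CHS, FLS1 and PIF5 lie near the diagonal; both differences share no library, but the genes shown were chosen on the 8 h values.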

How the data were processed

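Per the labels' protocols, RNA of whole seedlings was made into libraries with a stranded mRNA kit. Per the submitters' processing notes, the tools were STAR 2.5.3a and RSEM 1.3.0 on TAIR10; how strand was set and which annotation release was used are not given in any source consulted. The deposited table holds expected counts per gene, all whole numbers, so the authors had rounded the estimates. Of 32833 identifiers, 32548 matched RefSeq TAIR10.1, used for names, overlaps and promoters. Library totals over the 36 libraries were 30846115 to 58025421; floors of 3 counts cover counting error only. No library was a copy of another of its own group (lowest chi-square per degree of freedom 4.03), and libraries of different groups were not compared.

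One model of 12 groups over all 36 libraries was fitted in edgeR 4.0.16 under R 4.3.3, with its quasi-likelihood F-test. Scaling was by TMM, and filterByExpr used a minimum count of 10 and a minimum total of 15. P values were 2-sided, with Benjamini-Hochberg adjustment. SE is the fold change divided by the square root of F. The fit was also run on counts simulated from its own fitted means and spreads. That run cannot show how the results depend on single libraries or root tissue.

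Alternatives were RLE scaling, DESeq2 1.42.0, no filter, CPM of at least 1 in at least 3 libraries, a fit restricted to the compared groups, a replicate block, leaving out each library, the mean log2 CPM of 23 root markers as a covariate, and 289 rRNA and organelle genes left out.

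The members and the 31 lists (534 genes) were chosen with earlier results of these data known. Named genes were HY5, PIF4, PIF5, PIF7 and HYH, the 14 highest and 14 lowest by fold with a symbol, mean log2 CPM of at least 2, no overlap and a call in every leave-one-out and covariate fit, up to 4 called members of each list with the smallest adjusted p, and 5 highest and lowest in each other comparison. HAT3, ATHB4, CKX4, LDOX, LHY and CCA1 were named after their values were seen. Of the 127 named genes, 4 share at least 10% of their 50-base stretches with another gene (AT14A at both loci, LHCB2.1 and CDC20.1), and 17 are overlapped by at least 10% on the other strand. Figures used matplotlib 3.10.9.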

Additional observations from a re-analysis of the deposited data

Results flagged for a closer look

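The genotype difference at 8 h was other than that at 0 h for 2950 genes by the interaction term, and the 5 highest and 5 lowest changes are given here as log2 values of the 8 h minus the 0 h difference. They are ranked among called genes with a RefSeq symbol and a mean log2 CPM of at least 2 over the 6 libraries at 8 h, and genes outside those limits had larger changes. The change was higher for JMJ30 at 2.32, the 2 AT14A loci at 2.07 each, RBG7 at 2.02 and MYB29 at 1.95. It was lower for ST2A at -6.54, ELIP2 at -4.78, YUC8 at -4.25, XTH15 at -4.18 and CKX5 at -3.94.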

How the results depend on the processing

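Of 127 named genes, 118 were called between hy5 pif457 and WT, and none of these changed sign under an alternative run. Of the 9 not called, 5 changed sign, PELPK1, CYP705A5 and THAS1 with the root marker covariate (log2 values of -0.59, -0.54 and -0.38) and EXT2, CYP705A5 and SIAR1 without 1 WT library. Of the 127, 126 kept their side of the threshold with RLE scaling, 125 with DESeq2 and 120 with the root marker covariate. Leaving out 1 library cost 8 to 25 of the named calls. Calls against WT numbered 1506 to 4336 over the fits without 1 library, the 8 h minus 0 h calls 1122 to 4052, the calls against hy5 1839 to 5643, those against pif457 2531 to 6136, and the departures 53 to 5247. With the root marker covariate, the calls against hy5 were 3333 and the departures 25. With only the groups compared, the 8 h minus 0 h calls were 4492, the calls against pif457 836 and the departures 22. The cause of these changes was not tested. The replicate numbers did not pair the samples, since the deviations of same-numbered hy5 pif457 and WT libraries correlated at -0.186, -0.303 and -0.150. With the replicate block, calls against WT numbered 3785, the 8 h minus 0 h calls 2646, calls against hy5 4834, calls against pif457 5297 and departures 2662, each within 1.5 times the count without it; hy5 pif457 libraries did not correlate best with the WT library of their own number. Genes with few counts, such as ACS4 and HSP22, limit what this depth can show.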
